A study of Mus musculus with 8 samples.

Results

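The genes of Polycomb repressive complex 2 (PRC2) were examined in Myc-CaP tumors with or without *Arid1a*. Their members were chosen by name from the complex's known subunits: the catalytic subunits *Ezh1* and *Ezh2*, the core subunits *Eed*, *Suz12*, *Rbbp4* and *Rbbp7*, and the accessory subunits *Mtf2*, *Phf1*, *Phf19* and *Jarid2*. All 10 had a row among the 39089 genes of the deposited tables, and 9 were among the 13921 genes that passed the filter on low counts. *Phf19* did not pass and was not tested.

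Myc-CaP is a *Myc*-driven cell line of mouse prostate cancer. Its cells carried either an empty vector (EV, here WT) or an sgRNA against *Arid1a* delivered by lentivirus (*Arid1a* KO), and grew subcutaneously in 6-week-old male FVB mice. From day 16, mice were gavaged daily for 2 weeks with JSH-23, which keeps the NF-κB subunit p65 from entering the nucleus, dissolved in DMSO and diluted in corn oil, or with corn oil as vehicle. RNA-seq was run on the EpCAM-positive, CD45-negative fraction sorted from each tumor sample, and the 4 groups of 2 samples were WT with vehicle, WT with JSH-23, *Arid1a* KO with vehicle and *Arid1a* KO with JSH-23. The sources used here do not say whether the samples of a group came from separate tumors, so the p-values measure only the spread between these samples, which may be technical.

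PRC2 methylates lysine 27 of histone H3 (H3K27), a mark of repressed developmental genes. EZH1 and EZH2 are alternative catalytic subunits that act only together with EED, which binds the methylated mark, and SUZ12, the scaffold; RBBP4 and RBBP7 are closely related histone-binding subunits that other chromatin complexes also use. MTF2, PHF1 and PHF19 are Polycomb-like proteins that define one form of the complex, and JARID2 together with AEBP2 defines the other. SWI/SNF, the chromatin remodeler to which ARID1A belongs, is known to oppose Polycomb repression, and EZH2 is known for its high level in advanced prostate cancer.

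Total counts ranged from 16401581 to 21972231 per sample, and a count of 3, taken as the lowest level told from 0, corresponded to between 0.137 and 0.183 CPM (a count divided by the library's total, scaled by its TMM factor). Such limits cover counting error only. *Arid1a* was measured at 155.6 and 161.3 CPM in the WT samples with vehicle and at 102.8 and 105.8 CPM in the *Arid1a* KO samples with vehicle, a fold of 0.658. Samples of a group lay close together, with a biological coefficient of variation of 1.61%, yet their counts differed by more than sampling noise (chi-square of 1.46 to 1.57 for each degree of freedom). The labelled cell type was not matched by all of its markers. *Epcam*, the gene of the sorted surface protein, had 0 to 4 counts per sample, *Cdh1* 1 to 19 and *Krt18* 4 to 18, whereas *Krt8* had 540 to 2308. The summed level of the 4 epithelial markers, nearly all of it *Krt8*, was 51.8 to 60.6 CPM in vehicle-treated WT tumors, 33.1 to 33.7 CPM in JSH-23-treated WT tumors, 113 CPM in both *Arid1a* KO samples with vehicle and 99.1 to 104 CPM in JSH-23-treated KO tumors. The 6 leukocyte markers summed to at most 1.59 CPM in any sample, and the 2 endothelial markers to at most 1.08 CPM. The 3 fibroblast markers summed to between 53.9 and 61.7 CPM in 3 groups and to 38.6 and 39.2 CPM in JSH-23-treated KO tumors; *Pdgfra* made up nearly all of it, with *Dcn* at 3 to 15 counts and *Lum* at 0 to 2. These marker levels move with the groups compared below, and their part in the results was not tested. In bulk samples, fewer cells of a type and less RNA per cell cannot be told apart.

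Promoter sequences are shown for 4 members on which the results turn: *Suz12* and *Mtf2*, which were higher in *Arid1a* KO and lower with JSH-23, and the paralogs *Rbbp4* and *Rbbp7*, of which *Rbbp7* had the largest change with JSH-23 in KO tumors and the largest interaction of the 9 tested members. Each sequence is from RefSeq (GRCm38.p6), 5′ to 3′ on the gene's strand, and runs from 250 bases before the transcription start to 10 bases after it. Capitals mark matches to the motifs searched. The windows lie at chr11:79992856-79993115 (plus strand, *Suz12*), chr5:108065424-108065683 (plus strand, the upstream of the gene's listed starts, *Mtf2*), chr4:129335361-129335620 (minus strand, *Rbbp4*) and chrX:162760122-162760381 (plus strand, *Rbbp7*).
Suz12: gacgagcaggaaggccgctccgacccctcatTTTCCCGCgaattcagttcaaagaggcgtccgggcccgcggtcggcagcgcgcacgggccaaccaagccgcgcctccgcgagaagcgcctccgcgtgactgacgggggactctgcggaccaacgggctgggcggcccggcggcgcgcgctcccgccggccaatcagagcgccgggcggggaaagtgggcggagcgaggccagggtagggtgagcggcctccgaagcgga
Mtf2: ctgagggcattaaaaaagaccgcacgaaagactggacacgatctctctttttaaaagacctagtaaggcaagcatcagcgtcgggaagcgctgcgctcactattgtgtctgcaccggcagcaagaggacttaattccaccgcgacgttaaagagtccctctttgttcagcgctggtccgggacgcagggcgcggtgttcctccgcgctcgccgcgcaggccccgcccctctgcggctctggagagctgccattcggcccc
Rbbp4: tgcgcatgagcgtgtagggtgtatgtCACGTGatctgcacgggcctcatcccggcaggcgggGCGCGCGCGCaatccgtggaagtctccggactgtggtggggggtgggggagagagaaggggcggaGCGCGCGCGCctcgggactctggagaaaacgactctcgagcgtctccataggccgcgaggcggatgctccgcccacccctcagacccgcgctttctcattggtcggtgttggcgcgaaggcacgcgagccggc
Rbbp7: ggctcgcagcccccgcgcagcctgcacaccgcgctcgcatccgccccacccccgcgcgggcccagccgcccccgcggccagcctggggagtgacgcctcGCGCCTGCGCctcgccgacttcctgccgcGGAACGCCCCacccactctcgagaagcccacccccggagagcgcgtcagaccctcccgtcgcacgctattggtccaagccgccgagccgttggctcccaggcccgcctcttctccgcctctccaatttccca

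All 4 windows were rich in G and C, from 59.6% in *Mtf2* to 75.0% in *Rbbp7*, and held between 24 CpG in *Mtf2* and 39 in *Suz12*. The motifs were an E2F motif (TTTCCCGC, TTTCGCGC, TTTGCCGC or TTTGGCGC), the E-box CACGTG, an NRF1 motif (GCGCNNGCGC) and the κB motif, each on both strands. E2F and NRF1 matches can share bases by their letters, but no matches of different motifs overlapped in the members' windows. *Suz12* had an E2F match at -219 to -212 from its start. *Rbbp4* had an E-box at -224 to -219 and NRF1 matches at -188 and -123, and *Rbbp7* had an NRF1 match at -151 and a κB match, GGAACGCCCC, at -122 to -113. *Mtf2* had no match in this window. Among all 10 members, E2F matches stood in 2 genes (*Suz12* and *Phf19*), κB matches in 3 (*Rbbp7*, *Jarid2* and *Phf19*), NRF1 matches in 4 (*Ezh1*, *Ezh2*, *Rbbp4* and *Rbbp7*) and an E-box in *Rbbp4*. Of 32851 promoter windows of the same length, 1.95% held an E2F match, 7.46% a κB match, 5.27% an NRF1 match and 6.34% an E-box. These shares are counted by window, whereas the members are counted by gene. The 10 members had 12 windows, since *Jarid2* and *Mtf2* each had a further start listed. Enrichment was not tested. A match describes the letters in the window and is not a binding site.

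Levels were compared between members as TPM, the deposited value in which a count is divided by the gene's length. *Rbbp7* had the highest mean level over the 8 samples, 447 TPM (range 390.9 to 500.1), and *Rbbp4* followed at 119 TPM (109 to 129). *Ezh2* stood at 108 TPM (102 to 116) and *Suz12* at 99.2 TPM (86.3 to 125). *Eed* and *Ezh1*, at 67.1 TPM (60.7 to 73.7) and 64.7 TPM (59.2 to 73.7), were neighbours whose ranges overlapped. The accessory subunits were lower: *Mtf2* at 16.0 TPM (12.2 to 21.9), *Phf1* at 12.9 TPM (8.72 to 15.9) and *Jarid2* at 7.83 TPM (6.20 to 9.60). *Phf19* had 2 and 1 counts in the *Arid1a* KO samples with vehicle, 0 and 2 in those with JSH-23 and 0 in all 4 WT samples, all under the floor of 3 counts. In this order the level of *Rbbp7* was separated from that of *Rbbp4*, *Suz12* from *Eed*, and *Ezh1* from *Mtf2*. The ranges of *Rbbp4*, *Ezh2* and *Suz12* ran into each other. The range of *Phf1* overlapped those of *Mtf2* and *Jarid2*, which lay apart from each other. Within samples, *Rbbp4* lay above *Ezh2* and *Phf1* above *Jarid2* in all 8 by deposited TPM. *Ezh2* lay above *Suz12* in 6 samples, *Eed* above *Ezh1* in 6 and *Mtf2* above *Phf1* in 5. The length used for *Jarid2*, 16180 bases, exceeds its longest coding transcript of 5997 bases in GENCODE. With transcript lengths in place of the deposited ones, *Jarid2* ranked above *Phf1* and *Ezh2* above *Rbbp4*.

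**Figure D1:**
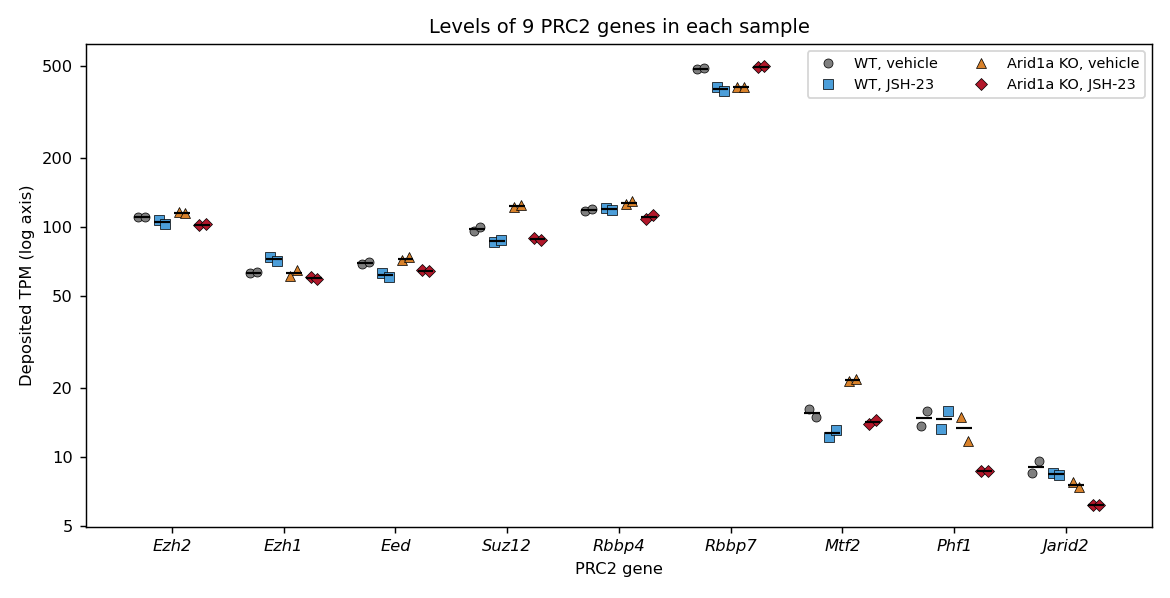
Deposited TPM (log axis) of the 9 tested PRC2 genes in each of the 8 samples, with a point per sample, marker and color by group, and a line at the mean of the 2 samples. *Rbbp7* lies between 390.9 and 500.1 TPM in all samples and *Mtf2*, *Phf1* and *Jarid2* lie at or under 21.9 TPM.

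The first comparison asked how the members differed between *Arid1a* KO and WT tumors given vehicle. *Mtf2*, *Suz12* and *Rbbp4* were higher in *Arid1a* KO tumors, *Rbbp7* and *Jarid2* were lower, and the catalytic subunits and *Eed* did not pass the test. Of the 9 members tested, 3 were called higher (adjusted p under 0.05, edgeR), against 25.0% of all genes tested, and 2 were called lower, against 25.5%. None reached a 1.5-fold difference, which 12.6% of all genes did along with the adjusted p; 5 members had an unadjusted p under 0.05. The median log2 difference of the members was 0.049, and that of all genes 0.0032.

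*Suz12*, the scaffold of the core, was measured at 166.4 and 172.4 CPM in WT tumors and at 210.6 and 215.1 CPM in *Arid1a* KO tumors. Both KO samples lay above both WT samples, a log2 difference of 0.33 (standard error 0.0297, adjusted p = 1.42e-15), or 25.7%. *Mtf2*, the Polycomb-like subunit that recruits the complex to CpG islands, rose from 42.13 and 38.67 CPM to 55.35 and 56.47 CPM, a log2 difference of 0.47 (standard error 0.0604, adjusted p = 5.3e-10). *Jarid2*, which belongs to the alternative form of the complex, was measured at 54.94 and 61.41 CPM in WT tumors and at 49.61 and 47.27 CPM in *Arid1a* KO tumors. It was lower in both KO samples, with a log2 difference of -0.27 (standard error 0.0567, adjusted p = 5.58e-05). *Phf1*, the other measured Polycomb-like gene, had 13.29 and 15.34 CPM in WT and 14.40 and 11.37 CPM in KO samples, which overlapped (log2 difference -0.16, adjusted p = 0.246). Without *Arid1a* KO vehicle replicate 1 its difference was -0.33 and called, and without replicate 2 it was 0.0071.

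The histone-binding paralogs went in opposite directions. *Rbbp7* was measured at 497.8 and 500.4 CPM in WT tumors and at 412.6 and 414.8 CPM in *Arid1a* KO tumors, a log2 difference of -0.27 (standard error 0.0207, adjusted p = 1.38e-18). *Rbbp4* was measured at 205.0 and 208.4 CPM in WT and at 218.5 and 224.6 CPM in *Arid1a* KO tumors, a log2 difference of 0.10 (standard error 0.0283, adjusted p = 0.00186), which was 0.079 and not called without *Arid1a* KO vehicle replicate 2. Counts of these paralogs are uncertain where reads match both.

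The catalytic subunits differed little. *Ezh2* was measured at 140.1 and 139.9 CPM in WT tumors and at 145.6 and 144.1 CPM in *Arid1a* KO tumors, and its log2 difference of 0.049 had a 95% interval from -0.017 to 0.12 (adjusted p = 0.223). *Ezh1* had 105.1 and 106.1 CPM against 101.4 and 108.0 CPM, with overlapping groups and a log2 difference of -0.0095 (interval -0.087 to 0.068). *Eed* had 56.13 and 57.54 CPM against 58.11 and 59.85 CPM, a log2 difference of 0.055 (interval -0.049 to 0.16). With the biological coefficient of variation set to 0.1 instead of estimated from these samples, *Mtf2* was the member still called in this comparison (adjusted p = 0.0149, with a range of 1.46e-12 to 0.554 over its alternatives other than leaving out samples), and with 0.2 none was.

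**Figure D2:**
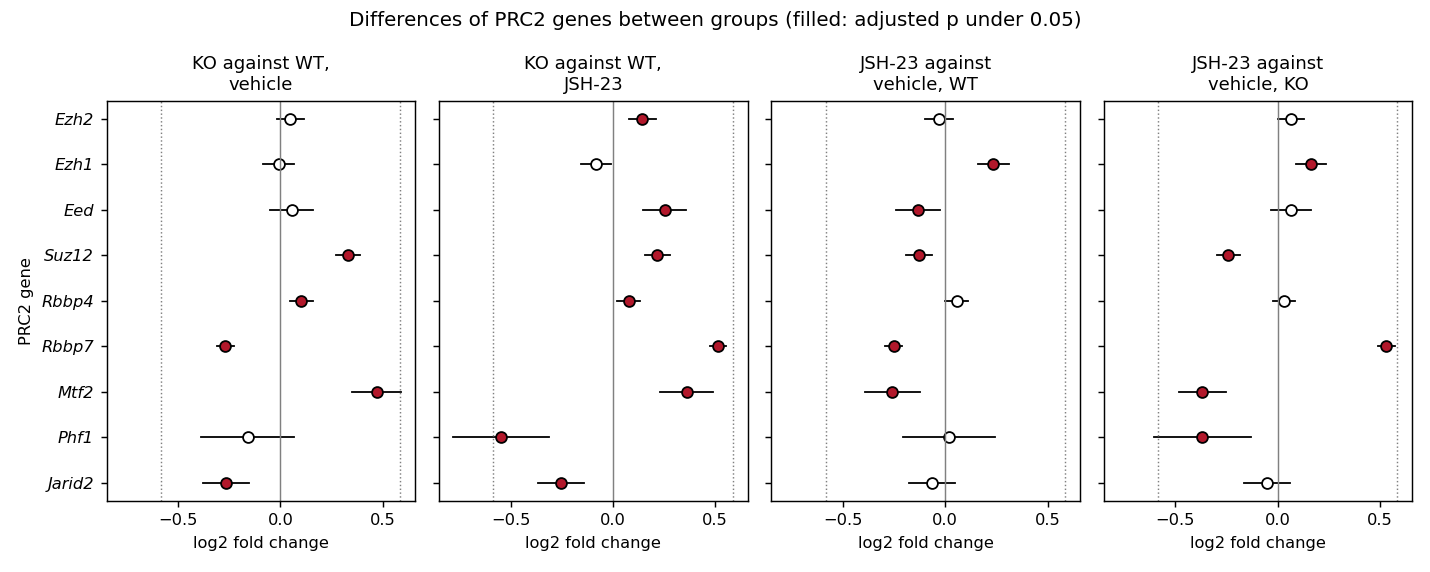
Log2 fold changes of the 9 tested PRC2 genes in the 4 comparisons between pairs of groups, with 95% intervals from edgeR; filled points have an adjusted p under 0.05, and dotted lines mark a 1.5-fold difference. *Suz12* and *Mtf2* lie right of 0 in both comparisons of genotype and left of 0 in both comparisons of JSH-23, whereas *Rbbp7* changes side.

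The same comparison between genotypes was made in tumors given JSH-23. Here 6 of the 9 members were called higher in *Arid1a* KO tumors, against 23.2% of all genes, and 2 were called lower, against 23.8%. No member passed the 1.5-fold criterion, which 8.71% of genes met, and the median log2 difference was 0.14 for the members and -0.011 for all genes. *Suz12* was measured at 153.5 and 156.7 CPM in WT and at 180.7 and 179.6 CPM in KO samples, a log2 difference of 0.22 (adjusted p = 1.14e-08). *Mtf2*, at 32.48 and 35.12 CPM in WT and 42.18 and 44.39 CPM in KO samples, differed by 0.36 on the log2 scale (adjusted p = 2.86e-06). For both genes every KO sample lay above every WT sample, as with vehicle.

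*Jarid2* was lower in JSH-23-treated KO tumors, at 46.50 and 46.83 CPM against 55.97 and 55.29 CPM, a log2 difference of -0.25 (adjusted p = 0.000147). *Phf1* was lower too, at 9.88 and 9.97 CPM against 13.23 and 15.86 CPM, a log2 difference of -0.55 (standard error 0.118, adjusted p = 7.3e-05). *Phf1* has the fewest counts of the tested members, and the gap between the samples of a group was between 0.872% and 23.5% of their mean. *Rbbp7* was higher, at 592.3 and 604.1 CPM in KO against 425.1 and 412.6 CPM in WT samples, a log2 difference of 0.51 (standard error 0.0203, adjusted p = 1.85e-33). This direction is the opposite of that with vehicle.

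*Ezh2* and *Eed* passed the test with JSH-23. *Ezh2* stood at 150.2 and 152.8 CPM in KO and at 139.3 and 134.6 CPM in WT samples (log2 difference 0.14, adjusted p = 0.000168), and *Eed* at 61.79 and 61.74 CPM against 52.57 and 50.97 CPM (log2 difference 0.25, adjusted p = 3.7e-05). *Rbbp4* differed by 0.078 (adjusted p = 0.0174), a call lost with DESeq2 and without WT JSH-23 replicate 2 (0.062) or *Arid1a* KO JSH-23 replicate 2 (0.058). Without scaling beyond library size, neither *Rbbp4* (0.00022) nor *Ezh2* (0.067) was called. *Ezh1* differed by -0.082 without passing the test (adjusted p = 0.0618), although it did without WT JSH-23 replicate 2 (-0.11). On the TPM scale, on which the median of all genes was shifted by -0.16 in this comparison, *Ezh2* and *Rbbp4* turned to -0.045 and -0.11, *Eed*, *Suz12* and *Mtf2* kept their direction at 0.063, 0.025 and 0.16 without being called, and 1 member, *Rbbp7*, was called higher and 4 were called lower (*Ezh1*, *Rbbp4*, *Jarid2* and *Phf1*). With a fixed coefficient of variation of 0.1, *Rbbp7* and *Phf1* were the members called.

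The comparisons of JSH-23 with vehicle share the vehicle samples of each genotype with the comparison above, so their values are given side by side without an overlap. In *Arid1a* KO tumors, JSH-23 was associated with higher *Rbbp7* and *Ezh1* and lower *Suz12*, *Mtf2* and *Phf1*. These were 2 members called higher, against 33.4% of all genes, and 3 called lower, against 34.4%, with no member past 1.5-fold (26.0% of genes). In WT tumors, 1 member, *Ezh1*, was called higher, against 28.6% of genes, and 4 were called lower (*Eed*, *Suz12*, *Rbbp7* and *Mtf2*), against 27.2%, again none past 1.5-fold (15.8%). The medians were 0.032 for the members and -0.02 for all genes in *Arid1a* KO tumors, and -0.065 and -0.0061 in WT tumors.

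*Suz12* and *Mtf2* fell with JSH-23 in both genotypes. The log2 change of *Suz12* was -0.24 in *Arid1a* KO tumors (adjusted p = 2.12e-11) and -0.13 in WT tumors (adjusted p = 0.000439), and that of *Mtf2* was -0.37 (adjusted p = 7.04e-08) and -0.26 (adjusted p = 0.000749). Among the 4 groups, the *Arid1a* KO samples with vehicle had the highest levels of both genes and the WT samples with JSH-23 the lowest. *Ezh1* rose in both genotypes, by 0.16 in *Arid1a* KO tumors (adjusted p = 9.88e-05), to 118.4 and 116.5 CPM, and by 0.23 in WT tumors (adjusted p = 3.01e-07), to 126.2 and 122.1 CPM. *Ezh2* did not pass the test in either, with 0.065 in *Arid1a* KO tumors (interval 0.0010 to 0.13, adjusted p = 0.0669) and -0.031 in WT tumors (interval -0.099 to 0.037). In *Arid1a* KO tumors *Ezh2* was called, at 0.072 to 0.096, when any WT sample or *Arid1a* KO JSH-23 replicate 1 was left out.

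*Rbbp7* rose with JSH-23 in *Arid1a* KO tumors by 0.53 on the log2 scale (standard error 0.0201, adjusted p = 3.11e-35), or 44.6%, and fell by 0.25 in WT tumors (standard error 0.021, adjusted p = 4.55e-17). *Rbbp4* was not called in either genotype, with 0.032 in KO (interval -0.023 to 0.086) and 0.056 in WT tumors (interval -0.0022 to 0.11), although it was called in KO tumors (0.081) without *Arid1a* KO JSH-23 replicate 1. *Phf1* fell by 0.37 in *Arid1a* KO tumors (adjusted p = 0.00467) and differed by 0.018 in WT tumors with overlapping samples. Its call in KO tumors was lost without *Arid1a* KO vehicle replicate 1 (-0.19) and with DESeq2. *Jarid2* differed by -0.053 and -0.065 and was not called in either genotype. *Eed* fell by 0.13 in WT tumors (adjusted p = 0.0316) and differed by 0.065 in *Arid1a* KO tumors (adjusted p = 0.249), and its call was lost when any 1 of the 4 WT samples was left out (-0.15 to -0.10) and with DESeq2.

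The scaling of the libraries mattered for JSH-23 in *Arid1a* KO tumors. Without scaling beyond library size the median of all genes was shifted by -0.13, and on the TPM scale with a pseudocount of 1 by -0.20, so the members' values under those scalings stand against these medians. Under TPM, 7 members were called lower and only *Rbbp7* higher, and *Ezh1*, *Ezh2*, *Eed* and *Rbbp4* changed sign. Over all genes, 4651 were called higher and 4791 lower with TMM, 3580 and 5913 without scaling, and 2320 and 6878 on the TPM scale. Between genotypes with JSH-23 the numbers were 3229 and 3307 with TMM, 2353 and 4496 without scaling and 1252 and 5793 on the TPM scale, and for the interaction described next 2851 and 2495, 1854 and 3750, and 1040 and 4536. With a fixed coefficient of variation of 0.1, *Rbbp7* and *Mtf2* were called in *Arid1a* KO tumors and no member was in WT tumors. For JSH-23 in *Arid1a* KO tumors, the directions of *Rbbp7*, *Suz12*, *Mtf2* and *Phf1* were the same under each scaling tried.

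**Figure D3:**
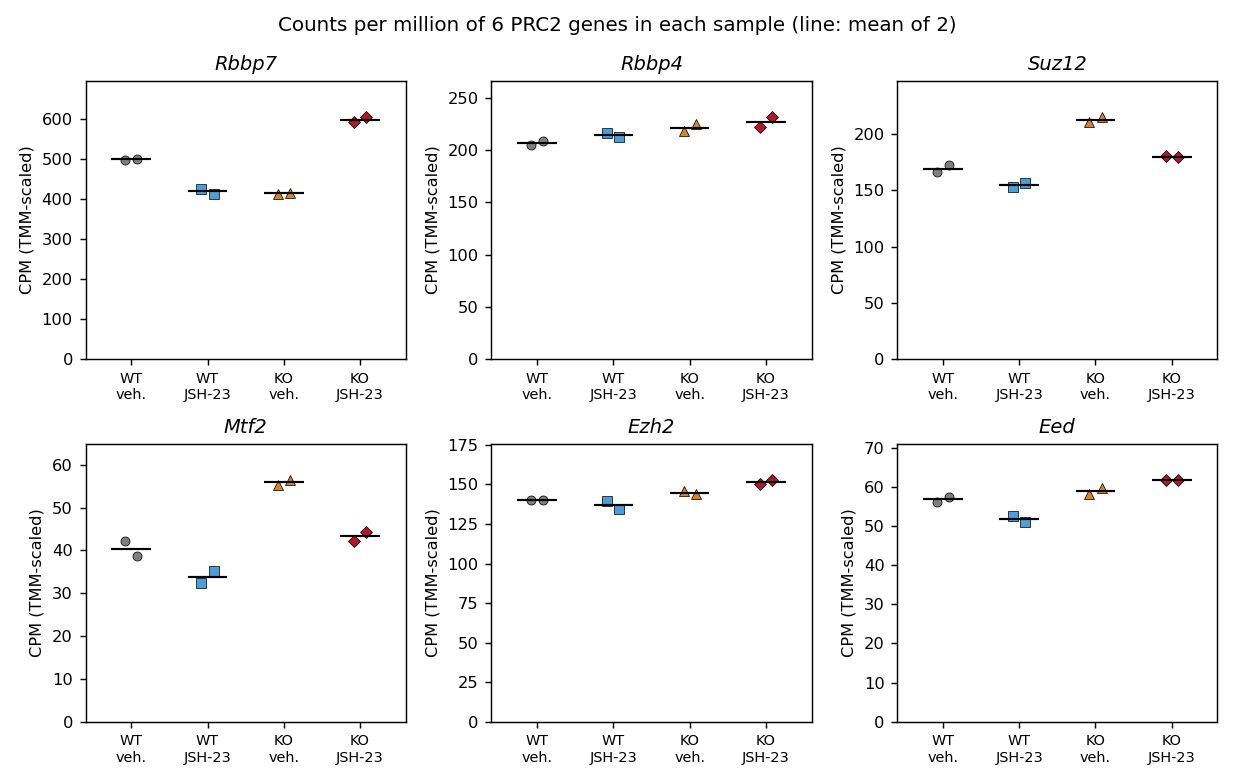
CPM of 6 PRC2 genes in each sample, on axes that start at 0, with a line at the mean of the 2 samples of a group. *Rbbp7* is at 497.8 and 500.4 CPM in vehicle-treated WT tumors and at 592.3 and 604.1 CPM in JSH-23-treated KO tumors, with the other groups between 412.6 and 425.1 CPM.

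Whether the JSH-23 difference depended on the genotype was tested as an interaction, the log2 change with JSH-23 in *Arid1a* KO tumors minus that in WT tumors. Of the 9 members, 2 had a positive interaction (*Rbbp7* and *Eed*), against 20.5% of all genes, and 1 a negative one (*Suz12*), against 17.9%. The interaction of *Rbbp7* was 0.78 (standard error 0.029, adjusted p = 1.08e-34), a ratio of 1.72, and was the only one of the members past 1.5-fold (9.07% of genes). It remained called with a coefficient of variation of 0.1 (adjusted p = 0.00711) and was not called with 0.2, the least favourable alternative (adjusted p between 1.39e-139 and 0.93 over its alternatives). The interaction of *Eed* was 0.20 (adjusted p = 0.0267), and that of *Suz12* was -0.11 (adjusted p = 0.0277). DESeq2 and the fit with no filter called neither, *Eed* was not called on TPM values (0.0036) or without scaling beyond library size (0.096), and leaving out 1 sample ended the call of *Eed* for 3 of the 8 samples (0.18 to 0.19) and that of *Suz12* for 5 (-0.11 to -0.086). *Phf1* had an interaction of -0.39 (interval -0.71 to -0.060), just outside the threshold (adjusted p = 0.0536), and was called, at -0.55 to -0.49, without WT vehicle replicate 2, WT JSH-23 replicate 1 or *Arid1a* KO vehicle replicate 2.

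**Figure D4:**
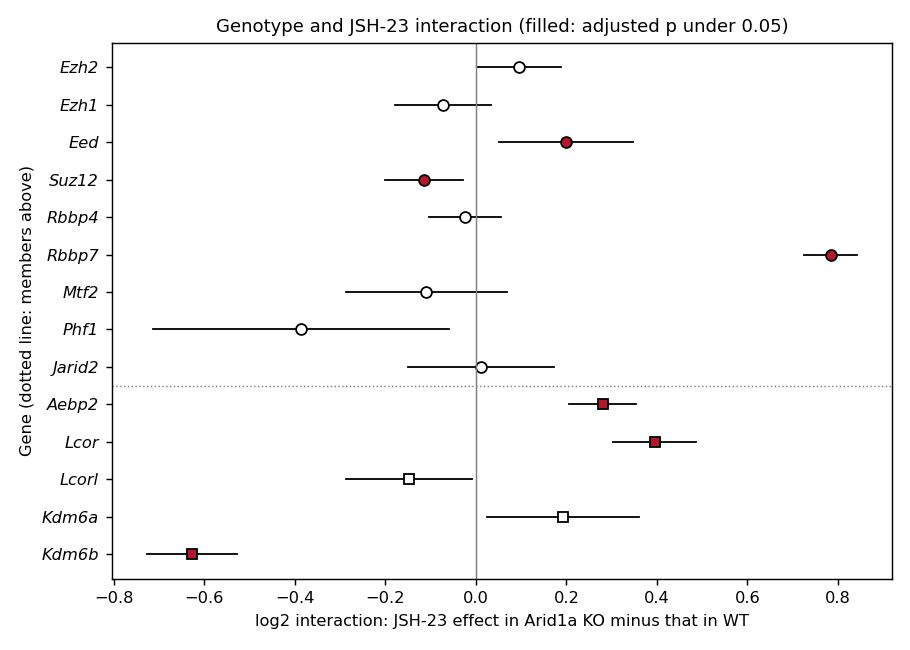
Log2 interaction (JSH-23 difference in *Arid1a* KO minus that in WT tumors) with 95% intervals for the 9 tested members, above the dotted line, and for other accessory subunits and H3K27 demethylases below it. *Rbbp7* stands at 0.78 and *Kdm6b* at -0.63, and the filled points passed an adjusted p of 0.05.

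Ratios of counts within a sample do not depend on the scaling of the library. The log2 ratio of *Jarid2* to *Mtf2*, subunits of the alternative forms of the complex, was 0.38 and 0.67 in vehicle-treated WT tumors, 0.79 and 0.65 in JSH-23-treated WT tumors, -0.16 and -0.26 in vehicle-treated KO tumors and 0.14 and 0.077 in JSH-23-treated KO tumors. All 4 KO samples lay below all 4 WT samples. The difference was -0.67, with p = 0.0286 in a two-sided exact permutation test (4 against 4), the smallest p this design allows, and 0.0857 after adjustment over the 6 ratio tests made. The log2 ratio of *Ezh2* to *Ezh1* was lower with JSH-23 by 0.18 (mean 0.254 ± 0.132 with JSH-23 and 0.438 ± 0.0566 with vehicle, SD, n = 4), with the same exact permutation p = 0.0286 and adjusted p = 0.0857. Each n of 4 pools 2 WT and 2 *Arid1a* KO samples, so the SD includes the difference between genotypes. The group means were 0.407 with vehicle and 0.142 with JSH-23 in WT tumors, and 0.469 and 0.367 in KO tumors. Neither the *Jarid2* to *Mtf2* nor the *Ezh2* to *Ezh1* difference passed the threshold after adjustment. Pooled over treatments, the ratio of *Ezh2* to *Ezh1* did not separate the genotypes (0.14, exact permutation p = 0.229). The log2 ratio of *Rbbp4* to *Rbbp7* differed by -0.033 between genotypes pooled over treatments (exact permutation p = 0.714). Between treatments pooled over genotypes it differed by -0.096 (exact permutation p = 0.514). Tests pooled in this way cannot show a difference whose direction changes between the pooled groups. With vehicle, this log2 ratio was -1.28 and -1.264 in WT and -0.917 and -0.8852 in KO samples. With JSH-23 it was -0.9715 and -0.9554 in WT and -1.418 and -1.384 in KO samples. The mean count ratio of *Rbbp4* to *Rbbp7* was 0.414 in vehicle-treated WT tumors, 0.513 in JSH-23-treated WT tumors, 0.536 in vehicle-treated KO tumors and 0.379 in JSH-23-treated KO tumors.

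**Figure D5:**
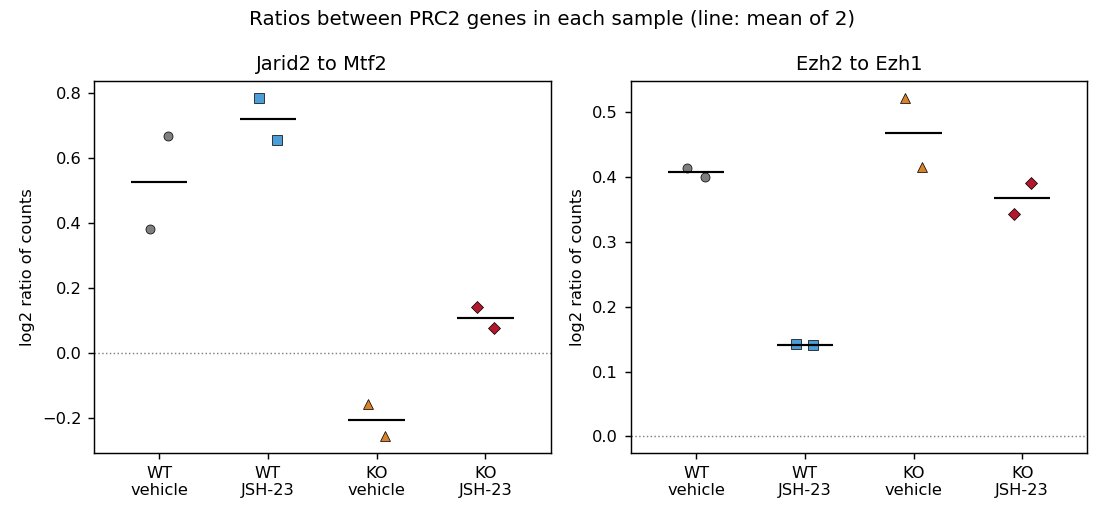
Log2 ratio of counts of *Jarid2* to *Mtf2* (left) and of *Ezh2* to *Ezh1* (right) in each sample, with a line at the mean of the 2 samples of a group. The *Jarid2* to *Mtf2* ratio lies between 0.38 and 0.79 in the WT samples and between -0.26 and 0.14 in the *Arid1a* KO samples.

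Other genes that act on or with the complex were examined by list. *Aebp2*, the partner of JARID2 in its form of PRC2, was measured at 250.9 and 250.4 CPM in WT and 194.2 and 195.0 CPM in vehicle-treated KO tumors, a log2 difference of -0.36 (standard error 0.0268, adjusted p = 2.19e-19), in the same direction as *Jarid2*. Neither of these differences was called with a coefficient of variation of 0.1. With JSH-23 *Aebp2* was at 253.0 and 253.1 CPM in WT and at 240.2 and 237.1 CPM in KO samples. Its change with JSH-23 was 0.29 in *Arid1a* KO tumors (adjusted p = 7.17e-16) and 0.014 in WT tumors (adjusted p = 0.682). The call in KO tumors was lost on log2(TPM + 1) and log2(TPM + 0.1), where the value was 0.055 and 0.056, and with a coefficient of variation of 0.1. *Lcor*, which encodes an accessory isoform of the Polycomb-like form, was lower in vehicle-treated KO tumors by 0.33 on the log2 scale (adjusted p = 1.96e-12) and rose with JSH-23 by 0.98 in KO (adjusted p = 7.46e-39) and 0.59 in WT tumors (adjusted p = 1.38e-25). Its paralog *Lcorl* rose with JSH-23 by 0.58 and 0.73 in these genotypes, while *Epop* stayed near 0 counts and was not tested. With a coefficient of variation of 0.1, the lower level of *Lcor* in vehicle-treated KO tumors was not called.

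The H3K27 demethylases, which remove the mark, differed from each other. *Kdm6b* was measured at 133.2 and 137.7 CPM in WT tumors and at 159.7 and 156.1 CPM in vehicle-treated KO tumors, a log2 difference of 0.22 (adjusted p = 7.98e-08), which was not called with a coefficient of variation of 0.1. With JSH-23 it was at 97.6 and 101.6 CPM in KO and at 129.7 and 134.5 CPM in WT samples, so that it fell by 0.66 in KO tumors (standard error 0.0349, adjusted p = 3.57e-27) and differed by -0.037 in WT tumors (adjusted p = 0.392). *Kdm6a* was lower in vehicle-treated KO tumors by 0.16 (adjusted p = 0.0274). That call was lost without WT vehicle replicate 1 or either KO sample with vehicle (-0.18 to -0.11). It was also lost with DESeq2, without scaling beyond library size and on both TPM scales. With JSH-23, *Kdm6a* rose by 0.54 in KO (adjusted p = 6.06e-13) and by 0.35 in WT tumors (adjusted p = 8.57e-07).

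In the comparison of *Arid1a* KO with WT tumors given vehicle, 7 of the 21 genes of PRC1, some forms of which bind the H3K27 mark, were called higher and 6 lower, with a median of 0.10, against 25.0% and 25.5% of all genes. The largest differences were those of *Pcgf1* (-0.58, adjusted p = 0.000186) and *Pcgf5* (0.55, adjusted p = 1.69e-12). Of 11 H3K4 methyltransferase genes, whose complexes oppose Polycomb, 3 were called higher and 4 lower, against the same shares of all genes, with *Men1* at -0.61, *Setd1b* at -0.53 and *Rbbp5* at 0.38. In the PR-DUB, the deubiquitinase of H2A, *Asxl1* was called lower (-0.26, adjusted p = 3.43e-08). *Bap1* was at 0.11, just inside the threshold (adjusted p = 0.0483), and was not called with DESeq2, with all genes kept, on either TPM scale or when any 1 of 5 samples was left out (0.054 without WT vehicle replicate 2). *Asxl2* was not called (-0.024) and *Asxl3* was not tested.

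RBBP4 and RBBP7 also serve CAF-1, the chaperone that deposits histones at replication, and deacetylase complexes. Of 9 such partner genes, 3 were called higher and 2 lower in vehicle-treated KO tumors, where the shares of all genes were 25.0% and 25.5%. The CAF-1 genes *Chaf1a* (0.56, adjusted p = 1.11e-18) and *Chaf1b* (0.52, adjusted p = 8.29e-09) were higher and *Mta1*, of the NuRD complex, was lower (-0.41, adjusted p = 2.68e-22).

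*Ezh2* and *Eed* are known E2F targets, so the members were set beside a list of 18 E2F and proliferation genes. In vehicle-treated KO tumors, 16 of the 18 were called higher and 1 lower, with a median log2 difference of 0.45, while 25.0% of all genes were called higher. *Ezh2* (0.049) and *Eed* (0.055) were not called there. *Mcm4*, a subunit of the replicative helicase, rose by 0.77, and the cyclin E genes *Ccne1* and *Ccne2*, which drive entry into S phase, by 1.59 and 1.33. With JSH-23, 15 of the 18 were called lower and 3 higher in *Arid1a* KO tumors (median -0.53, against 34.4% and 33.4% of all genes). In WT tumors, 14 were called lower and 3 higher (median -0.56, against 27.2% and 28.6%). The corresponding differences of *Ezh2* were 0.065 and -0.031, neither called, and those of *Eed* were 0.065, not called, and -0.13, called lower. Between genotypes with JSH-23, 14 of the 18 were called higher and 1 lower (median 0.49, against 23.2% and 23.8% of all genes), and *Ezh2* (0.14) and *Eed* (0.25) were called higher. The differences of *Suz12* and *Mtf2* had the direction of the list's median in each of these 4 comparisons. Those of *Ezh1* had the opposite sign in each, with neither comparison of genotype called. The other tested members matched the list's direction in some of the comparisons only. These comparisons share their samples, so their directions are not independent of each other. The share of all genes with the same directions was not counted. The part of proliferation in the values of the members was not tested.

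Genes known to carry the PRC2 mark in other cells were mostly not expressed enough to test. Of 14 such genes, 5 passed the filter, of which 3 were called lower in vehicle-treated KO tumors (median -0.10, against 25.5% of all genes called lower), among them *Pax6* (-0.18, adjusted p = 0.000684) and *Cdkn2a* (-0.092, adjusted p = 0.0384), whose call was lost with DESeq2, on the TPM scales and without WT vehicle replicate 1 or *Arid1a* KO vehicle replicate 2 (-0.076 and -0.048). With JSH-23, 4 of the 5 were called higher in *Arid1a* KO tumors (median 0.43, against 33.4% of all genes) and 2 in WT tumors (median 0.13, against 28.6%), and none was called lower. Between genotypes with JSH-23, 2 of the 5 were called higher and 1 lower (median -0.053), against 23.2% and 23.8% of all genes. Of 39 genes of the Hox clusters, 24 passed the filter, with 3 called higher and 8 lower in vehicle-treated KO tumors, against 25.0% and 25.5% of all genes. *Hoxd4* (-1.31, adjusted p = 3.37e-08) and *Hoxa7* (-0.99, adjusted p = 8.28e-10) were lower and *Hoxc6* (1.10, adjusted p = 1.34e-09) was higher. The H3K27 mark itself was not measured in these samples.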

How the data were processed

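RNA-seq of sorted Myc-CaP tumor cells was analysed for 8 samples in 4 groups of 2, assigned from the sample labels. The methods of the study name TopHat2 as the aligner, the submitters' processing notes name HISAT2, and which made the files is not settled in the sources used here; both give mm10. Reads were counted per gene by strand with HTSeq-count, and the authors deposited these counts unnormalized. Beside each count stands a deposited TPM value, which was reproduced here from the count and the length given for the gene.

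Genes were filtered with filterByExpr (13921 of 39089 kept), scaled by TMM (factors 0.949 to 1.03) and fitted over the 8 samples with edgeR 4.0.16 (quasi-likelihood test, R 4.3.3) with Benjamini-Hochberg adjustment over all genes; called means an adjusted p under 0.05. Fold changes come from this fit. Ratios were compared by exact permutation tests (scipy 1.17.1). The tests were checked on simulated counts. Alternatives were DESeq2 1.42.0, limma 3.58.1 on log2(TPM + 1) and log2(TPM + 0.1), no scaling, other filters, the replicate number as a block, fewer groups in the fit, a fixed biological coefficient of variation of 0.1 or 0.2, TPM ratios, leaving out each sample, and 2 settings added after seeing the data (DESeq2 size factors in edgeR and GENCODE transcript lengths).

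The members and gene lists were chosen with earlier results of these data known. All 10 members are named. From each other list up to 3 genes are named, those with the largest difference between *Arid1a* KO and WT tumors given vehicle among called genes of at least 1 CPM, and all genes of lists of 4 or fewer; some items selected by this rule are not reported here. Protein-coding genes on the opposite strand (*Txlng* at *Rbbp7*, *Sync* at *Rbbp4*, *Tmed5* at *Mtf2*, *Cuta* at *Phf1*) overlap members. On the same strand, *Gm45120* overlaps *Eed* and *Mir6968* overlaps *Phf1*. Coordinates are GRCm38.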

Additional observations from a re-analysis of the deposited data

Results flagged for a closer look

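This flag covered the tested members, the other accessory subunits and the H3K27 demethylases. For 6 of these genes the change with JSH-23 differed between the genotypes, tested as an interaction with edgeR. Among the members, these were *Rbbp7* (log2 interaction 0.78, adjusted p = 1.08e-34), for which both JSH-23 samples lay above both vehicle samples in *Arid1a* KO tumors and below them in WT tumors, *Eed* (0.20, adjusted p = 0.0267) and *Suz12* (-0.11, adjusted p = 0.0277). Among the other accessory subunits and the H3K27 demethylases, they were *Aebp2* (0.28, adjusted p = 3.01e-09), *Lcor* (0.40, adjusted p = 5.34e-11) and *Kdm6b* (-0.63, adjusted p = 2e-17). On log2(TPM + 1) the interaction of *Aebp2* was 0.082 and that of *Lcor* 0.18, and neither was called there, on log2(TPM + 0.1) or with a coefficient of variation of 0.1. The interactions of *Eed* and *Suz12* were not called with DESeq2, with all genes kept or with a coefficient of variation of 0.1. Such an interaction was called for 20.5% of all genes tested in the positive and 17.9% in the negative direction. Lists outside this flag held called interactions too. Positive and negative calls numbered 1 and 8 of 21 PRC1 genes and 1 and 4 of 11 H3K4 methyltransferase genes. They numbered 2 and 0 of 9 partner genes of RBBP4 and RBBP7 and 0 and 0 of 3 tested PR-DUB genes.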

How the results depend on the processing

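Of the members' fold changes, 371 of the values under alternatives other than leaving out a sample kept direction and side of the threshold, 66 were no longer called, 24 became called and 25 changed sign; with a sample left out these were 324, 16, 11 and 9. The main limit is the spread: it was estimated from 2 samples a group, and *Phf1* and *Phf19* had the lowest counts.

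With a biological coefficient of variation of 0.1, the members called higher and lower were 1 and 0 in *Arid1a* KO against WT tumors with vehicle, 1 and 1 with JSH-23, 1 and 1 for JSH-23 in *Arid1a* KO tumors, 0 and 0 in WT tumors and 1 and 0 for the interaction. With 0.2 each of these was 0, including the interaction past 1.5-fold. At 0.2, 614 of all genes were called in the first comparison. Of the named genes outside the members, *Aebp2*, *Lcor*, *Kdm6a*, *Kdm6b*, *Asxl1*, *Bap1*, *Rbbp5*, *Pax6* and *Cdkn2a* were no longer called in that comparison with 0.1.

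For JSH-23 in *Arid1a* KO tumors, members called higher and lower were 1 and 7 on log2(TPM + 1) and log2(TPM + 0.1) and 1 and 5 without scaling, with 2 past 1.5-fold on log2(TPM + 0.1). Between genotypes with JSH-23 they were 1 and 4 on both TPM scales, and 1 was past 1.5-fold there and without scaling. For the interaction they were 1 and 5 on both TPM scales and without scaling, and 1 and 0 with DESeq2 and with all genes kept. The replicate block gave 2 lower, as did a minimum of 10 counts per sample. The replicate numbers did not pair the samples (correlations of deviations between -0.096 and 0.04), and the replicate block moved no other count of members by over 1.5 times.

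On log2(TPM + 1) and log2(TPM + 0.1), in that order, the log2 values that changed sign were, for JSH-23 in *Arid1a* KO tumors, *Ezh1* -0.071 and -0.072, *Ezh2* -0.17 and -0.17, *Eed* -0.17 and -0.17, and *Rbbp4* -0.20 and -0.21, and in WT tumors *Phf1* -0.019 and -0.020 and *Aebp2* -0.0267 and -0.0270. Between genotypes with JSH-23 they were *Ezh2* -0.0452 and -0.0456, *Rbbp4* -0.11 and -0.11, *Lcor* -0.12 and -0.12, and *Kdm6a* -0.15 and -0.16. For the interaction they were *Ezh2* -0.10 and -0.10, *Jarid2* -0.16 and -0.19, and *Kdm6a* -0.0062 and -0.0048. Without scaling, *Ezh1* (0.017) and *Asxl2* (0.0020) changed sign in *Arid1a* KO against WT tumors with vehicle, *Ezh2* (-0.0485), *Eed* (-0.0485) and *Rbbp4* (-0.082) for JSH-23 in *Arid1a* KO tumors, *Lcor* (-0.0092) and *Kdm6a* (-0.044) between genotypes with JSH-23, and *Ezh2* (-0.0076) and *Jarid2* (-0.091) for the interaction. With that minimum, *Ezh1* was 0.0023 in the first comparison and *Aebp2* -0.0021 for JSH-23 in WT tumors. Apart from *Rbbp4* and *Ezh2* between genotypes with JSH-23 and *Ezh1* for JSH-23 in *Arid1a* KO tumors, none of these was called with TMM. The cause was not tested.

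In the order of levels with transcript lengths, *Ezh2* ranked 2, *Rbbp4* 3, *Jarid2* 8 and *Phf1* 9.

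With a sample left out, members called higher for JSH-23 in *Arid1a* KO tumors numbered 2 to 4 (4 without *Arid1a* KO JSH-23 replicate 1), the interaction's higher calls 1 to 2 and lower calls 0 to 2, and those past 1.5-fold between genotypes with JSH-23 0 to 1 (1 without WT JSH-23 replicate 1). Higher interaction calls were 1 without WT vehicle replicate 2, WT JSH-23 replicate 2 or *Arid1a* KO vehicle replicate 1. Lower ones were 0 without WT vehicle replicate 1, WT JSH-23 replicate 2 or either *Arid1a* KO JSH-23 sample, and 2 without WT vehicle replicate 2 or WT JSH-23 replicate 1. Log2 values that changed sign ranged from -0.060 to 0.032 for *Ezh1*, -0.33 to 0.0071 for *Phf1* and -0.13 to 0.065 for *Asxl2* in *Arid1a* KO against WT tumors with vehicle, from -0.053 to 0.00094 for *Ezh2*, -0.14 to 0.019 for *Jarid2* and -0.11 to 0.15 for *Phf1* for JSH-23 in WT tumors, and from -0.065 to 0.093 for *Jarid2* and -0.039 to 0.018 for *Rbbp4* for the interaction. The ratio differences ranged from -0.75 to -0.60 for *Jarid2* to *Mtf2* and from -0.23 to -0.15 for *Ezh2* to *Ezh1*, each with an exact permutation p of 0.0571, the smallest that 3 against 4 samples allow, and from -0.12 to 0.056 for *Rbbp4* to *Rbbp7* between genotypes.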
